A study of Homo sapiens with 6 samples.

Results

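Vimentin and keratins build the intermediate filaments of a cell, and the transcripts of 4 such genes, VIM, KRT8, KRT18 and KRT10, were followed here after knockdown of the long non-coding RNA AC010789.1. The genes were chosen by name. All rows of the transcript count table whose GENCODE v29 symbol was VIM, KRT8, KRT18, KRT19, KRT10 or KRT20 were taken, and the rows of a gene were summed in each library. Of these 6 genes, 4 were measured, with 36 of the 98886 transcripts of the table and 4 of its 18750 matched genes, while KRT19 and KRT20 were not analysed here. The cells were labelled HCT116, a long-established line from a human colorectal carcinoma. They received either si-AC010789.1, which targets AC010789.1, or siRNA-NC, the negative control. Each group had 3 libraries of total RNA, sequenced as paired-end TruSeq libraries, and both groups were transfected cells of the same line. The paper describes the libraries as biological repeats made from different generations of cells, and the labels do not say which generation a library came from. The p-values measure the spread between these libraries. An untransfected group was not analysed here, nor was the level of AC010789.1 itself. The paper describes a check of the knockdown in the sequenced samples, which was not repeated here.

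Intermediate filaments are rope-like polymers that give cells mechanical strength. Keratins are the filaments of epithelial cells and assemble only as pairs of a type I and a type II chain; in simple epithelia such as the lining of the gut the main pair is KRT18 with KRT8. Vimentin is the type III filament of mesenchymal cells, and its rise against E-cadherin and keratins is a widely used readout of epithelial-mesenchymal transition (EMT), which the study followed with vimentin as a marker. KRT10 is a type I keratin best known from the upper layers of the epidermis.

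Libraries held between 11277222 and 13443866 counts, and 3 counts, the level used as a floor, corresponded to between 0.223 and 0.266 CPM, the count scaled to the library size. Gene sums were tested with the quasi-likelihood test of edgeR over 13750 genes, with p-values adjusted over all of them by the method of Benjamini and Hochberg. Single transcripts, 44319 of them, were tested in a separate fit of the same kind. The labelled line was compared with its markers. CDH1, which encodes E-cadherin, had 8 to 9 counts under siRNA-NC and 10 to 13 under si-AC010789.1, under the filter on low counts. EPCAM, an epithelial adhesion molecule, was at 3.61 ± 0.479 and 4.96 ± 0.940 CPM (mean ± SD, n = 3), and the tight junction gene CLDN7 at 23.5 ± 2.11 and 22.8 ± 3.75 CPM. These were the 3 of 5 epithelial genes listed, members aside, that had rows. Their summed level ranged from 26.2 to 29.7 CPM under siRNA-NC and from 25.4 to 32.6 CPM under si-AC010789.1. Of the fibroblast genes listed, 5 of 7 had rows, and their summed level ranged from 60.6 to 69.9 CPM under siRNA-NC and from 64.2 to 69.2 CPM under si-AC010789.1, mostly from COL1A1 and PDGFRB. The immune list had 1 of 4 genes with rows, CD68, at 5.32 to 8.29 and 2.18 to 4.71 CPM, and the endothelial list 2 of 4, VWF and CDH5, at a sum of 1.73 to 2.48 and 0.872 to 2.51 CPM. The ranges of CD68 did not overlap between the groups (log2 fold change −1.03, edgeR adjusted p = 0.181), and its part in the values of the filament genes was not tested. HCT116 is known as an epithelial line, and in these libraries CDH1 was under the filter and EPCAM under 10 CPM beside high VIM, KRT8 and KRT18. The identity of the line was not tested here, and CDX2 and VIL1 were not analysed here.

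The transcripts of a gene differ in which introns they keep, and the results below turn on 3 such points. In each pair of 30-base stretches shown, the capitals mark what follows the point where the spliced and the intron-keeping transcript part. The sequences are those of the GENCODE v29 transcripts on GRCh38, written 5′ to 3′ on the transcript strand. VIM-201, the main protein-coding transcript, and VIM-206, annotated as a target of nonsense-mediated decay, part after exon 7 of VIM-201 at chr10:17235875-17235889 on the plus strand, and VIM-206 keeps the whole intron of 404 bases.
VIM-201: ccctgaacctgagggAAACTAATCTGGATT
VIM-206: ccctgaacctgagggGTAAGCATTTTATTT
The KRT8 pair shares its capitals instead, the start of exon 3 of KRT8-215 at chr12:52902058-52902072 on the minus strand. KRT8-215 reaches it from exon 2, and the retained-intron transcript KRT8-211 from the last of the 132 intron bases with which it begins.
KRT8-215: tccttcatagacaagGTACGGTTCCTGGAG
KRT8-211: tcctccttcgtatagGTACGGTTCCTGGAG
KRT18-201 and the retained-intron transcript KRT18-205 part after exon 5 of KRT18-201 at chr12:52951842-52951856 on the plus strand, where KRT18-205 reads through the intron of 262 bases.
KRT18-201: tccatgagaaatctgAAGGCCAGCTTGGAG
KRT18-205: tccatgagaaatctgGTGAGTGCCTTCACA
The stretch of KRT8-211 and that of KRT18-205 occurred in no other member transcript of the table. The stretch of VIM-201 also occurred in VIM-209, and that of VIM-206 in VIM-203.

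None of the 4 gene sums passed the test. In edgeR 0 of 4 had an adjusted p under 0.05 and 0 of 4 an unadjusted p under 0.05, and DESeq2 called 0 of 4, where edgeR called 0.982% and DESeq2 3.78% of all genes. By the criteria the study names (unadjusted p under 0.05, and a log2 fold change above 1 or below −1), 0 of 4 were called against 0.778% of all genes. The groups overlapped in all 4, while they did not overlap in 25.1% of all genes.

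VIM lies at chr10:17228259-17237593 on the plus strand. Its gene sum was 775, 803 and 914 CPM under siRNA-NC replicates 1, 2 and 3, and 658, 827 and 695 CPM under si-AC010789.1 replicates 1, 2 and 3. Only si-AC010789.1 replicate 2 lay within the range of siRNA-NC, and the other knockdown libraries lay below it. The means were 831 ± 73.3 and 727 ± 89.1 CPM (SD, n = 3), with a log2 fold change of −0.19 (SE 0.103, 95% interval −0.44 to 0.05, edgeR adjusted p = 0.398). The exact two-sided permutation test of the CPM values gave p = 0.3, where the smallest value that 3 against 3 allows is 0.1. With protein-coding transcripts alone the log2 fold change was −0.73 (edgeR adjusted p = 0.380). In bulk RNA such as this, fewer cells of a kind and less RNA per cell cannot be told apart.

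KRT8, the type II partner, lies at chr12:52897187-52949954 on the minus strand. Its gene sum was 729, 850 and 576 CPM under siRNA-NC and 499, 444 and 657 CPM under si-AC010789.1. The knockdown libraries 1 and 2 were below every control library, and replicate 3 was above siRNA-NC replicate 3. The means were 718 ± 137 and 533 ± 111 CPM, and the log2 fold change of −0.43 (SE 0.187, 95% interval −0.88 to 0.02) did not pass in edgeR (unadjusted p = 0.0578, adjusted p = 0.310).

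KRT18, the type I partner, lies next to KRT8 at chr12:52948871-52952901 on the plus strand. It was at 406, 374 and 404 CPM under siRNA-NC and at 535, 351 and 370 CPM under si-AC010789.1. Replicate 1 of the knockdown was the highest of the 6 libraries, and the other knockdown libraries were the lowest. The log2 fold change was 0.08 (SE 0.159, 95% interval −0.30 to 0.47, edgeR adjusted p = 0.832), and without si-AC010789.1 replicate 1 it was −0.13, so its sign rested on that library.

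KRT10, at chr17:40818117-40822595 on the minus strand, was the least counted of the 4. Its counts were 242, 364 and 302 under siRNA-NC and 254, 250 and 217 under si-AC010789.1, or 23.8 ± 3.17 and 19.9 ± 2.30 CPM. Replicate 1 of the knockdown was above siRNA-NC replicate 1, so the groups overlapped. The log2 fold change was −0.26 (SE 0.134, 95% interval −0.58 to 0.06, edgeR adjusted p = 0.377). TMEM99, which overlaps KRT10 on the other strand, was at 4.24 ± 0.623 and 3.915 ± 1.04 CPM, and whether the counting used strand is not given in the sources used here.

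**Figure D1:**
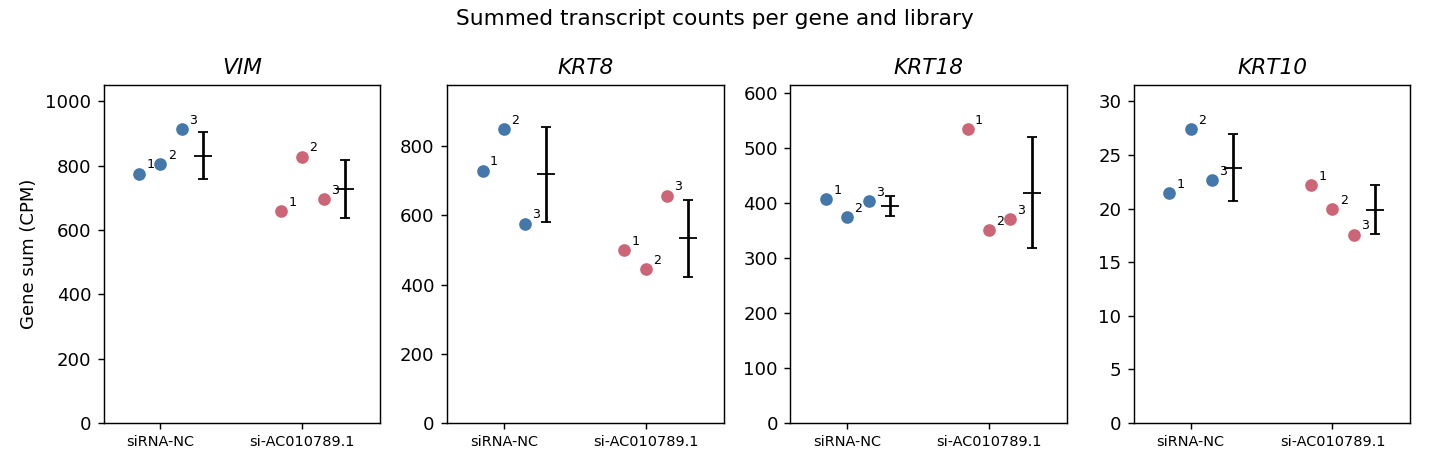
Gene sums of VIM, KRT8, KRT18 and KRT10 in CPM (vertical axis, from 0, a scale for each gene) in the siRNA-NC and si-AC010789.1 libraries; points are libraries with their replicate number, and bars are the mean ± SD of 3 libraries. The groups overlap in each of the 4 genes, and KRT18 under si-AC010789.1 replicate 1 (535 CPM) stands above the other 5 libraries (351 to 406 CPM).

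To set the genes against each other, counts were divided by transcript length and scaled to the same total in every library (TPM). In siRNA-NC, KRT8 was at 1122 ± 305 TPM, VIM at 883 ± 56.3 TPM, KRT18 at 512 ± 33.2 TPM and KRT10 at 49.3 ± 18.0 TPM. KRT8 and VIM overlapped in this order, while VIM was above KRT18 and KRT18 above KRT10 in every siRNA-NC library. In si-AC010789.1 the levels were 747 ± 81.5 TPM for VIM, 730 ± 304 TPM for KRT8, 570 ± 171 TPM for KRT18 and 49.0 ± 13.9 TPM for KRT10. The ranges of VIM, KRT8 and KRT18 overlapped there, and KRT10 stayed below all of them.

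Every described transcript of VIM, KRT18 and KRT10, and KRT8-211 of KRT8, had a larger standard error of its log2 fold change than the sum of its gene, while KRT8-215 and KRT8-201 had a smaller one. Of the 36 member transcripts, 25 passed the filter, and 0 of 25 had an adjusted or an unadjusted p under 0.05 in edgeR (adjusted p from 0.871 to 1.000), nor did DESeq2 call any. Over all transcripts edgeR called 0.0135% and DESeq2 1.52%, and 5.73% had an unadjusted p under 0.05. The fitted biological coefficient of variation, the spread between replicates, was 0.698 for transcripts and 0.170 for genes. By the criteria of the study 0 of 25 were called, against 3.5% of all transcripts. A transcript is described below where it took at least 5% of the counts of its gene in at least 1 library, which held for 15 of 36, and the other 21 took at most 3.27% in any library. The counting error of a share, as the widest half-width of its 95% Wilson interval, was 1.12 percentage points for VIM, 1.22 for KRT8, 1.44 for KRT18 and 6.59 for KRT10, and it covers counting error only.

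VIM counts sat mostly in VIM-201 and VIM-206, the pair that differs by the intron after exon 7. VIM-201 took 76.5%, 33.8% and 59.7% of the VIM counts under siRNA-NC and 54.7%, 31.5% and 32.1% under si-AC010789.1. VIM-206 took 8.65%, 51.2% and 27.1% under siRNA-NC and 23.6%, 56.4% and 53.9% under si-AC010789.1. The libraries rich in one were poor in the other, and siRNA-NC replicate 2 resembled si-AC010789.1 replicates 2 and 3 more than it did the other control libraries. The sum of the pair held between 85.0% and 86.8% of VIM under siRNA-NC and between 78.3% and 87.9% under si-AC010789.1.

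VIM-201 was at 470 ± 171 CPM under siRNA-NC and 280 ± 70.6 CPM under si-AC010789.1 (log2 fold change −0.75, SE 0.338, edgeR adjusted p = 0.895). VIM-206 was at 244 ± 175 and 330 ± 158 CPM (log2 fold change 0.44, SE 0.724, edgeR adjusted p = 0.994). The groups overlapped for both transcripts. Within siRNA-NC alone the highest VIM-206 count, 5461, was 7.21 times the lowest, 757. Every 31-base stretch of VIM-201 and every one of VIM-206 occurs in at least 1 other transcript of the annotation, so no such stretch is particular to either. How reads that several transcripts share were divided is not given in the sources used here.

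Of the other VIM transcripts, VIM-205, a processed transcript without an annotated coding sequence, took 5.63% to 13.03% of VIM under siRNA-NC and 7.72% to 12.04% under si-AC010789.1. VIM-203, a second decay transcript with the kept intron, took 10.7% under si-AC010789.1 replicate 1 and at most 3.95% elsewhere. On the opposite strand lie VIM-AS1 and AL133415.1, neither of them analysed here, and 47.4% of the 31-base stretches of VIM-201 occur in other genes when both strands are read, but 0.272% when only its own strand is.

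The vimentin primers that the study lists for qRT-PCR were matched to the annotated transcripts, since they say which of these transcripts that assay can read. They are shown 5′ to 3′.
Vimentin forward: accgcacacagcaaggcgat
Vimentin reverse: cgattgagggctcctagcggtt
Each primer was found in 1 transcript of the annotation, VIM-209, with a product of 132 bases between chr10:17228375-17228394 and chr10:17228485-17228506, outside its coding sequence. VIM-209 is a protein-coding transcript that starts upstream of VIM-201. It had 0 counts in all 3 siRNA-NC libraries and 0, 0 and 5 counts under si-AC010789.1. By counting error alone, a count of 0 allows up to 3 counts, or 0.266 CPM in the shallowest library. As counted, the transcript that holds both primers was at or near the floor, whereas VIM as a whole was between 658 and 914 CPM. Of the 31-base stretches of VIM-209, 12.6% are found in no other transcript. How shared reads were divided is not given, so these counts do not show that VIM-209 was absent. Only exact matches to annotated transcripts were sought. Besides qRT-PCR, the paper reports lower vimentin protein after knockdown by western blot and by immunofluorescence. Those assays do not use these primers, and protein was not analysed here.

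KRT8 counts sat in KRT8-215, KRT8-201 and KRT8-211. KRT8-215, protein-coding, was at 381 ± 67.5 CPM under siRNA-NC and 318.5 ± 28.9 CPM under si-AC010789.1 (log2 fold change −0.26, SE 0.144, edgeR adjusted p = 0.927). KRT8-201, also protein-coding, was at 88.6 ± 10.97 and 97.1 ± 11.2 CPM (log2 fold change 0.13, SE 0.142, edgeR adjusted p = 0.990), the smallest standard error of the 25. Both varied less between libraries than KRT8-211 did.

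KRT8-211, which begins in the second intron, had 3154, 3817 and 1304 counts under siRNA-NC and 184, 224 and 2966 under si-AC010789.1. It was low in knockdown replicates 1 and 2 and as high in replicate 3 as in the controls. Its share of KRT8 was 38.3%, 33.8% and 17.0% under siRNA-NC, and 3.21%, 4.03% and 36.5% under si-AC010789.1. Its log2 fold change was −1.29 with an SE of 1.19 (edgeR adjusted p = 0.983).

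The spread of the KRT8 sum was narrower without this transcript. Without KRT8-211, in a sum chosen after its values were seen and not tested, KRT8 was at 450, 562 and 478 CPM under siRNA-NC and 483, 426 and 417 CPM under si-AC010789.1. The means were 497 ± 58.4 and 442 ± 36.1 CPM, a log2 ratio of −0.17 in place of −0.43. With protein-coding transcripts alone the tested log2 fold change of KRT8 was −0.15 (edgeR adjusted p = 0.532). The remaining 14 KRT8 transcripts took at most 1.89% each.

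KRT8 and KRT18 have many processed pseudogenes, and 20 of each were in the table. The KRT8 pseudogenes, led by KRT8P3, held between 15.05% and 26.4% of the KRT8 count in a library, and the KRT18 pseudogenes between 3.57% and 4.48% of the KRT18 count. Of these, 6 and 4 were tested, and the lowest edgeR adjusted p among them was 0.226. Of the 31-base stretches of KRT8-201, 56.6% occur in other genes, whether both strands are read or only its own. Of those of KRT18-201, 67.5% do when both strands are read and 60.4% when only its own is. A read that lies wholly within shared sequence cannot be placed by its sequence alone. Both gene sums are uncertain for this reason, by an amount that these shares do not give. Adding the pseudogene counts gave a log2 fold change of −0.38 for KRT8 (edgeR adjusted p = 0.277) and 0.09 for KRT18 (edgeR adjusted p = 0.819). KRT8 and KRT18 overlap only through 8 KRT8 transcripts that begin beside KRT18, which held between 0.798% and 2.20% of KRT8.

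KRT18 counts sat mostly in KRT18-201, protein-coding, with 2793, 2609 and 3235 counts under siRNA-NC and 4818, 2674 and 2813 under si-AC010789.1. Its share of KRT18 was 52.52% to 60.836% under siRNA-NC and 60.842% to 78.6% under si-AC010789.1, so the groups did not overlap but came within the counting error of each other (exact permutation p = 0.1, the smallest possible). In CPM it was 229 ± 26.5 and 286 ± 116 (log2 fold change 0.32, SE 0.290, edgeR adjusted p = 0.983).

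Other KRT18 transcripts were high or at 0 in a single library. KRT18-205, which reads through the intron after exon 5, had 29, 36 and 30 counts under siRNA-NC and 682, 34 and 62 under si-AC010789.1. Its share of KRT18 did not overlap either, at 0.557% to 0.725% in the controls and 0.774% to 11.1% after knockdown (exact permutation p = 0.1). Among all member transcripts, only KRT18-201 and KRT18-205 had shares without overlap. How often this held over all transcripts was not analysed here, so nothing is drawn from it. KRT18-202, protein-coding, had 506, 15 and 11 counts under siRNA-NC and 0, 23 and 26 under si-AC010789.1. KRT18-207, protein-coding, had 505, 1406 and 901 counts under siRNA-NC and 0, 492 and 573 under si-AC010789.1. Its annotated 3′ UTR is longer, with 466 bases against 59 in KRT18-201. Knockdown replicate 1 was thus the library with the highest KRT18-205 and with no count in KRT18-202 and KRT18-207, and it also had the highest KRT18 sum. Without KRT18-205, a sum chosen after its values were seen, KRT18 in that library was at 475 CPM, still the highest of the 6. None of the 3 passed in edgeR (log2 fold changes 3.14, −3.55 and −1.37, SE 1.27, 2.08 and 1.64, adjusted p 0.871, 0.938 and 0.992). Of the 31-base stretches of KRT18-202, 1.08% are found in no other transcript, and of those of KRT18-207, 0%. How shared reads were divided is not given, so a count of 0 does not show that either transcript was absent.

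The retained-intron transcripts KRT18-204 and KRT18-206 were at 24.1 ± 4.72 and 44.0 ± 10.2 CPM under siRNA-NC and at 21.95 ± 8.22 and 50.2 ± 12.7 CPM under si-AC010789.1. Taken as a class, the 4 retained-intron transcripts of KRT18 summed to 69.7, 70.7 and 92.9 CPM under siRNA-NC and 114, 96.2 and 94.1 CPM under si-AC010789.1. The groups did not overlap (exact permutation p = 0.1, the smallest possible), but the share of this class in KRT18 did overlap, at 19.7% ± 3.01 and 24.8% ± 3.08 (exact permutation p = 0.2). In knockdown replicate 1, KRT18-205 alone was at 59.3 CPM, against at most 5.00 CPM in any other library. Without KRT18-205 that library held less of the class than any control, so the lack of overlap rested on this transcript in that library. The same class summed to 295, 313 and 115 CPM in the controls of KRT8 and to 29.4, 34.4 and 256 CPM after knockdown (log2 ratio of means −1.18), and in VIM the log2 ratio was −0.53. The groups overlapped in both genes, and the direction of this annotated class was opposite to that of KRT18. In VIM the class leaves out VIM-206 and VIM-203, which keep an intron but are annotated as targets of nonsense-mediated decay. Those summed to 259 ± 172 CPM under siRNA-NC and 359 ± 124 CPM under si-AC010789.1, with overlap. Their log2 ratio of means was 0.47, in the direction of KRT18.

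KRT10 counts were divided between KRT10-201 and KRT10-202, both protein-coding. KRT10-202 took 90.1%, 8.24% and 57.3% of KRT10 under siRNA-NC and 48.8%, 95.2% and 49.3% under si-AC010789.1, and KRT10-201 the rest. The spread within each group was wider than the difference between the groups. Of the 31-base stretches of KRT10-202, 8.86% are found in no other transcript, against 74.5% of those of KRT10-201.

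**Figure D2:**
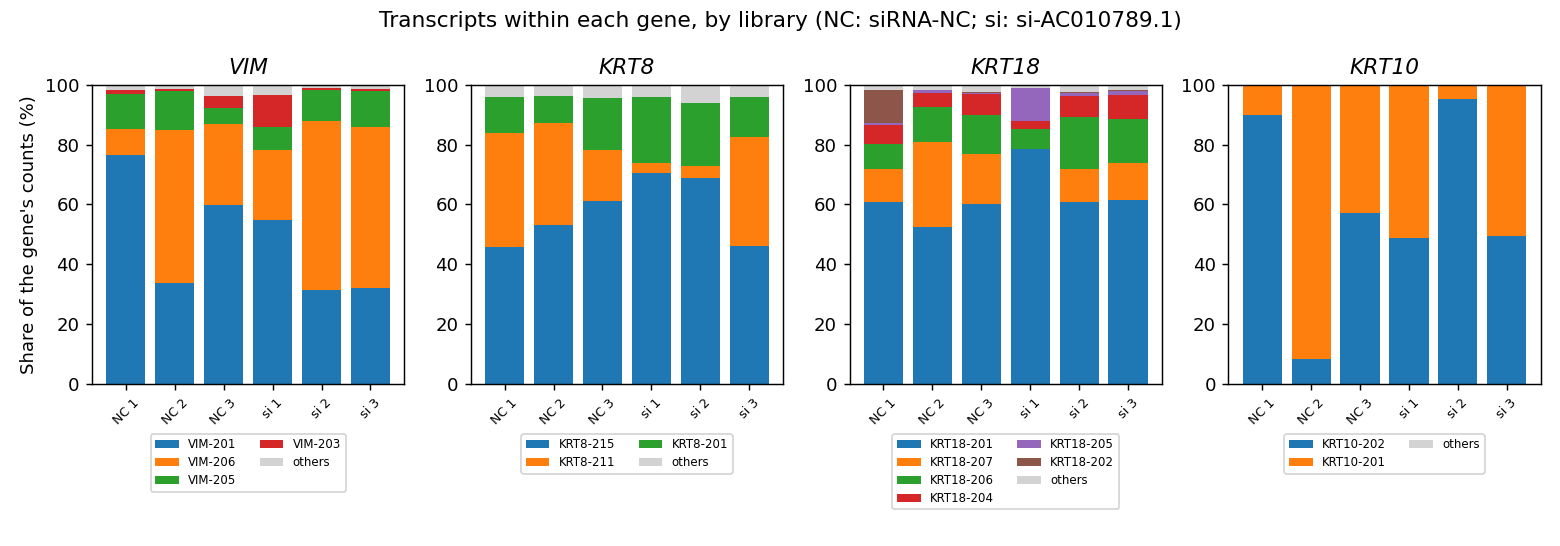
Share of each gene's counts (percent, vertical axis) taken by its transcripts in the 6 libraries (horizontal axis), with transcripts that reached 5% in at least 1 library in color and all others in grey. The VIM-201 share runs from 31.5% to 76.5% and the KRT8-211 share from 3.21% to 38.3%, and for both the siRNA-NC and si-AC010789.1 libraries overlap.

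The study follows miR-432-3p, a microRNA, as a partner of AC010789.1, so the 3′ UTRs of the members were searched for its seed. The mature sequence from RefSeq is shown with the seed, bases 2 to 8, in capitals.
miR-432-3p: cUGGAUGGcuccuccaugucu
The letters searched, on the transcript strand, were CCATCCA and CATCCAA, and overlapping matches of both were counted as 1. Of the member transcripts of the table annotated as protein-coding with a 3′ UTR, only KRT18-207 held a match, and 10.6% of 60121 such transcripts of the annotation hold at least 1. It stands in capitals in the stretch at chr12:52952754-52952773 on the plus strand.
KRT18-207: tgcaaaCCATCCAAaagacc
These bases belong to the 3′ UTR of 466 bases of KRT18-207, and in KRT18-201 they are coding sequence. The counts of KRT18-207 overlapped between the groups as given above, and no 31-base stretch is particular to this transcript. The level of miR-432-3p was not analysed here.

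Since type I and type II keratins pair, the ratio of KRT8 to KRT18 was taken within each library, which needs no library size. By counts it was 1.79, 2.27 and 1.43 under siRNA-NC and 0.934, 1.26 and 1.78 under si-AC010789.1. Knockdown replicates 1 and 2 were below all controls and replicate 3 within their range. The mean log2 ratio was 0.85 ± 0.335 under siRNA-NC and 0.36 ± 0.463 under si-AC010789.1, a difference of −0.49 (exact two-sided permutation p = 0.2). With protein-coding transcripts alone the ratios were 1.28, 1.76 and 1.48 under siRNA-NC and 1.12, 1.60 and 1.45 under si-AC010789.1, and the difference was −0.12 (exact permutation p = 0.6). By TPM, the scale on which levels of different genes can be compared, KRT8 was above KRT18 in all 3 control libraries and in 2 of 3 knockdown libraries. By TPM of protein-coding transcripts alone KRT8 was above KRT18 in every library, at a ratio of only 1.01 in si-AC010789.1 replicate 1.

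The ratio of VIM to the sum of KRT8, KRT18 and KRT10 set vimentin against the member keratins that were measured. KRT7, KRT80 and KRT17, given below and each at a higher CPM than KRT10, were not in this sum. By counts it was 0.670, 0.642 and 0.912 under siRNA-NC and 0.623, 1.02 and 0.665 under si-AC010789.1. The knockdown libraries held both the lowest and the highest ratio. The difference in mean log2 ratio was 0.03 (exact two-sided permutation p = 0.9). With protein-coding transcripts alone it was −0.58 (exact permutation p = 0.4), from ratios of 0.750, 0.314 and 0.687 under siRNA-NC and 0.395, 0.382 and 0.322 under si-AC010789.1, where siRNA-NC replicate 2 lay below all knockdown libraries. The direction of this ratio thus changed with the transcripts counted.

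**Figure D3:**
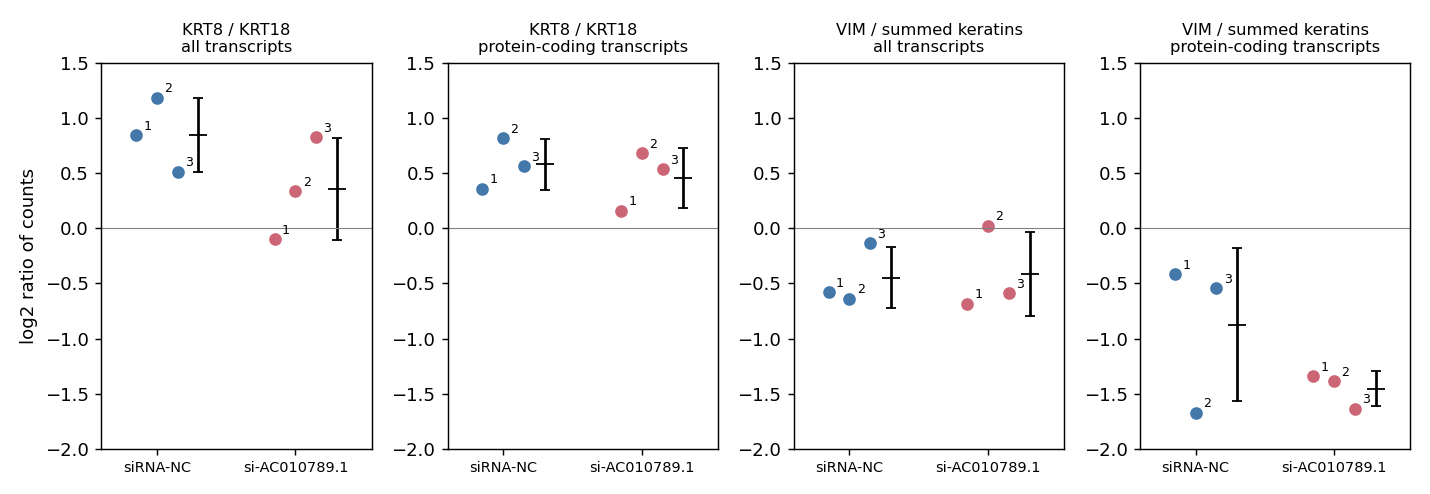
Log2 ratio of counts (vertical axis) of KRT8 to KRT18 and of VIM to the summed keratins in each library, over all transcripts and over protein-coding transcripts only; points are libraries with their replicate number and bars the mean ± SD of 3 libraries. The groups overlap in every panel, and siRNA-NC replicate 2 stands apart from the other controls in the VIM ratio of protein-coding transcripts.

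Of 64 other intermediate filament genes listed, 21 were in the table and 17 were tested. In edgeR 0 of 17 had an adjusted p under 0.05, 4 had an unadjusted p under 0.05 (17.2% of all genes had), and DESeq2 called 3 (3.78% of all genes), namely KRT7, SYNM and BFSP1. The other gene with an unadjusted p under 0.05 was the hair keratin KRT34, named after its values were seen, at 1.41 ± 0.308 and 2.66 ± 0.251 CPM. The groups did not overlap in 8 of 17, against 25.1% of all genes. The median log2 fold change was −0.09, and over all genes tested it was −0.001.

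Among keratins, KRT7, a type II keratin of simple epithelia, was at 145, 148 and 176 CPM under siRNA-NC and 186, 209 and 202 CPM under si-AC010789.1. Every knockdown library was above every control library (log2 fold change 0.35, SE 0.0875, edgeR adjusted p = 0.128). KRT80, a type II keratin, was at 138 ± 14.97 and 132 ± 39.4 CPM (log2 fold change −0.06, edgeR adjusted p = 0.923), and KRT17, a type I keratin of basal and stressed epithelia, at 72.8 ± 8.54 and 69.3 ± 5.10 CPM (log2 fold change −0.07, edgeR adjusted p = 0.781).

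SYNM, which encodes synemin, a filament protein that assembles with vimentin and desmin, was at 256, 244 and 244 CPM under siRNA-NC and 202, 221 and 215 CPM under si-AC010789.1. All knockdown libraries were below all controls (log2 fold change −0.22, SE 0.0502, edgeR adjusted p = 0.108). NES, which encodes nestin, another partner of vimentin, was at 26.7 ± 2.66 and 22.7 ± 1.87 CPM (log2 fold change −0.23, edgeR adjusted p = 0.336), and INA, which encodes internexin alpha of neuronal filaments, at 59.6 ± 2.53 and 54.9 ± 0.218 CPM (log2 fold change −0.12, edgeR adjusted p = 0.383). BFSP1, which encodes the lens filament protein filensin, was at 22.6, 16.8 and 21.6 CPM under siRNA-NC and 13.3, 9.98 and 11.1 CPM under si-AC010789.1, without overlap (log2 fold change −0.82, SE 0.161, edgeR adjusted p = 0.0816). In SYNM, NES, INA and BFSP1, and also in LMNB1 and in PRPH, the neuronal filament gene of peripherin, which was named after its values were seen, every control library was above every knockdown library, and none of these passed the adjusted test.

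The nuclear lamins line the inner nuclear membrane, and their log2 fold changes lay between −0.09 and 0.17. LMNA was at 511 ± 27.3 and 488 ± 39.6 CPM (log2 fold change −0.06, edgeR adjusted p = 0.699), LMNB1 at 295 ± 13.9 and 277 ± 2.82 CPM (−0.09, adjusted p = 0.363) and LMNB2 at 207 ± 18.4 and 233 ± 15.7 CPM (0.17, adjusted p = 0.350).

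**Figure D4:**
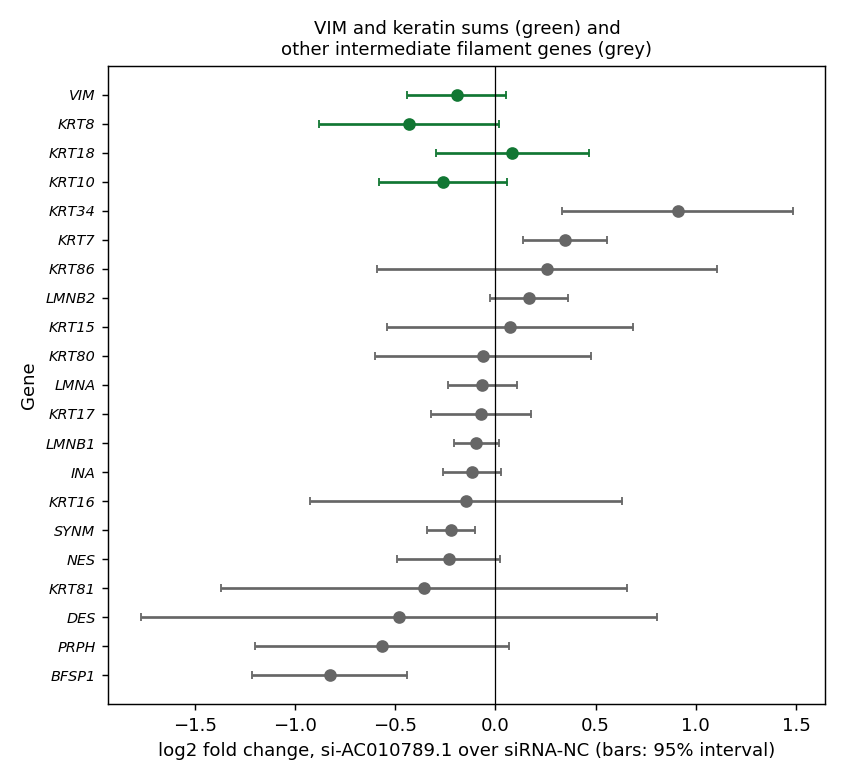
Log2 fold change of si-AC010789.1 over siRNA-NC (horizontal axis) for VIM and the keratins KRT8, KRT18 and KRT10 (green) and the 17 other intermediate filament genes tested (grey), with 95% intervals from edgeR. The intervals of the 4 green genes include 0, and those of KRT7, KRT34, SYNM and BFSP1 do not, although none of these passed after adjustment over all genes.

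The last list held 65 genes whose products anchor, modify or degrade these filaments, and 64 of them were tested. In edgeR 0 of 64 had an adjusted p under 0.05, 11 had an unadjusted p under 0.05 (5 higher and 6 lower), and DESeq2 called 1. Over all genes edgeR called 0.982% and DESeq2 3.78%, and 17.2% had an unadjusted p under 0.05, the same as the share of the list. The groups did not overlap in 11 of 64, or 17.2%, against 25.1% of all genes, and the median log2 fold change was 0.01. The gene called by DESeq2 was PAK1, a kinase that phosphorylates vimentin, at 17.5 ± 1.02 CPM under siRNA-NC and 11.5 ± 1.03 CPM under si-AC010789.1 (log2 fold change −0.60, SE 0.106, edgeR adjusted p = 0.0658). CASP9, a caspase of the mitochondrial apoptosis pathway, was at 18.8 ± 7.28 and 32.7 ± 6.998 CPM (log2 fold change 0.80, edgeR adjusted p = 0.242), and MAPK14, the p38 kinase, at 52.4 ± 27.9 and 80.4 ± 30.4 CPM (log2 fold change 0.62, edgeR adjusted p = 0.522). These 3 had the largest absolute log2 fold changes of the list among genes of at least 10 CPM.

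The members did not share a profile over the 6 libraries. The root-mean-square difference between log2 CPM profiles, each centred on its own mean, was largest for KRT8 and KRT18, the partners in a filament, at 0.41, and smallest for VIM and KRT10 at 0.21. Such a difference grows with the spread of each profile about its own mean. That spread was 0.32 for KRT8, 0.20 for KRT18, 0.19 for KRT10 and 0.16 for VIM. The order of the pairs thus reflects spread as well as pattern. Among 9960 genes of at least 10 CPM, the profiles most like VIM were those of ZNF417 and SLC35D1 (0.04 and 0.05), most like KRT8 those of RASAL2 and ATP8B1 (0.12 for both), most like KRT18 those of CHD2 and PAX6 (0.06 and 0.07), and most like KRT10 those of LGALS3BP and MAEA (0.05 and 0.06). With 6 libraries and so many genes these are descriptions.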

How the data were processed

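RNA sequencing of HCT116 cells treated with siRNA-NC or si-AC010789.1 was analysed, with 3 libraries per group taken from the sample labels. The deposited values are raw read counts, 1 whole number for each transcript in each library. Their processing notes name CASAVA 1.8 and TopHat2 2.0.6, with GRCh38 among the builds, and the paper names Cuffdiff. The counting program and its treatment of strand and of shared reads are not given in the sources used here, and this affects single transcripts more than gene sums. Transcripts were matched to GENCODE v29 (98782 of 98886) and summed per gene. Libraries of a group differed by more than counting noise (chi-square per degree of freedom from 13.4 to 16.7), and no sample column of the table was left unused.

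Genes and transcripts were each tested over the whole table with edgeR 4.0.16 in R 4.3.3 (TMM, filterByExpr set to 10 counts and a total of 15, quasi-likelihood test, Benjamini-Hochberg adjustment at 0.05). CPM use TMM-scaled library sizes, and TPM were computed from the counts and annotated transcript lengths. Ratios were compared with exact permutation tests in scipy 1.17.1. Cuffdiff needs the alignments and was not run. The alternatives were DESeq2 1.42.0, RLE and upper-quartile normalization, no filter, a mean CPM of 1 as the filter, the replicate number as a block, leaving out each library, protein-coding transcripts only and, for KRT8 and KRT18, added pseudogene counts. The members and gene lists were chosen with earlier results of these data known. The text names all members, transcripts with at least 5% of their gene's counts in at least 1 library, other filament genes of at least 10 CPM, the 3 largest changes among partner genes of at least 10 CPM, and the 2 genes most like each member. Names outside this rule are marked. On simulated data of 13643 genes, a log2 fold change of 1 was recovered in 77.6% and of 2 in 95.5% of cases, with 11 false among 192 calls. On 41112 simulated transcripts the shares were 0% and 1.49%. The simulation gave all genes the same biological coefficient of variation, 0.170, and all transcripts the same, 0.698. Spread differs between real features, so these shares need not hold for a single member.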

Additional observations from a re-analysis of the deposited data

How the results depend on the processing

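The 4 gene sums stayed on the same side of the threshold under all 54 alternatives run (adjusted p from 0.209 to 0.992), and 53 kept their direction. Leaving out each library gave log2 fold changes of −0.29 to −0.12 for VIM, −0.61 to −0.29 for KRT8, −0.13 to 0.20 for KRT18 and −0.35 to −0.15 for KRT10, where KRT18 was reversed, at −0.13, without si-AC010789.1 replicate 1. With protein-coding transcripts only, VIM was at −0.73 (adjusted p = 0.380) and KRT8 at −0.15. The ratio of VIM to the keratins reversed with protein-coding transcripts only (−0.58) and ranged from −0.19 to 0.19 when each library was left out, below 0 without si-AC010789.1 replicate 2 (−0.19) and without control library 1 (−0.03) or 2 (−0.06). The difference in the ratio of KRT8 to KRT18 ranged from −0.73 to −0.26 when each library was left out, and was −0.77 by TPM.

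The number of genes called was 135, but 520 with DESeq2, 69 without a filter and 12 to 37 when each library was left out. The number of transcripts called was 6, but 675 with DESeq2, 0 without a filter and 0 to 6 when each library was left out, and no member transcript was called under any of these. Of the other filament genes DESeq2 called 3 in place of 0, and of the partner genes 1 in place of 0. The cause of these differences was not tested.

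With the replicate number as a block, 0 genes (in place of 135) and 0 transcripts were called. The deviations of same-numbered libraries correlated at 0.111, 0.0109 and 0.0164 over genes, so the numbers were not taken to pair the libraries, and not every library correlated best with its own number. Over transcripts the same correlations were 0.0144, 0.0107 and 0.00881, and there every library did correlate best with its own number. The labels do not pair the libraries. The paper's mention of different cell generations between biological repeats would allow a pairing, which could not be settled here. Under the block the log2 fold changes were −0.20 for VIM, −0.43 for KRT8, 0.06 for KRT18 and −0.26 for KRT10, and the exact sign-flip tests of the 2 ratios gave p = 0.5 and p = 1, where 3 pairs allow no less than 0.25. KRT19 and KRT20 were not analysed here, so their alternatives were not run. In data simulated with the same spread for every transcript, edgeR recovered 1.49% of transcripts with a log2 fold change of 2 and 81.8% of those with 6.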
